A study of Homo sapiens with 24 samples.

Results

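A second siRNA against ZBED2 (siZBED2-2) was added to an siRNA against FOXA1 in RT112 cells, and the transcriptome was compared with that of RT112 cells given the FOXA1 siRNA alone. The comparison used 4 of the 24 libraries of the series, 2 of siFOXA1+siZBED2-2 and 2 of siFOXA1, chosen by their labels. RT112 is a human bladder cancer cell line of the luminal papillary subtype, and both groups were grown in RPMI with 10% FBS. Every library compared here therefore carried siFOXA1 number 1, transfected with a lipid reagent, and RNA was measured by 3′ RNA-seq, in which reads are primed from the poly-A tail. The 8 RT112 libraries of the other 4 treatments entered the fit only to estimate the spread between replicates.

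FOXA1 is a forkhead pioneer factor that opens chromatin and sustains luminal urothelial identity. ZBED2 is a BED-type zinc finger factor of the basal programme, described as a repressor that competes with IRF1 at interferon-responsive elements. Interferon signals through the receptor chains, JAK kinases and a complex that holds STAT2 and IRF9, which switches on antiviral and antigen presentation genes. The comparison asks what a further knock-down of ZBED2 changes in cells given the FOXA1 siRNA. The total amount of siRNA in the double knock-down is not given in the sources used here, nor whether siFOXA1 wells received a filler siRNA. An effect of siRNA load therefore cannot be told apart from an effect of ZBED2. The groups also differ by a single ZBED2 siRNA, so an effect of its sequence on other transcripts cannot be told apart either. The term double knock-down names the treatment and not a measured fall in ZBED2.

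The 4 libraries held between 4621137 and 5128301 counts, and 14154 to 14887 genes had at least 1 count. Epithelial identity genes were present throughout (KRT19 had 11434 to 14189 counts and GATA3 1282 to 1647), while PTPRC and COL3A1 had no count in any of the 4 libraries. Of 5 endothelial markers, KDR and TEK were at 0 throughout, CDH5 had 10 and 25 counts in siFOXA1 and 0 and 0 in siFOXA1+siZBED2-2, PECAM1 had 0 and 0 against 4 and 10, and VWF had 6 and 0 against 0 and 0. The list summed to 3.22 and 5.37 CPM against 0.877 and 2.11 CPM, where CPM are counts per 1000000 counts of a library scaled by its TMM factor, and its part in the results was not tested. Of 9 fibroblast markers, LUM (322 to 363 counts) and COL1A1 (172 to 265) could be tested and neither was called. The 8 leukocyte markers summed to at most 0.439 CPM in a library. Transcripts of the mitochondrial genome took 21.4% and 22.7% of all counts in siFOXA1 and 19.4% and 18.6% in siFOXA1+siZBED2-2, and ribosomal protein genes took 6.24% and 5.81% against 7.54% and 7.94%. The part of these shares in the results below was not tested. Dropping the mitochondrial transcripts before scaling gave 184 calls in place of 166, of which 164 were shared.

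The siRNA target could hardly be read at this depth. ZBED2 (ENSG00000177494, GRCh38 chr3:111592900-111595346) had 27 and 7 counts in siFOXA1 replicates 1 and 2, and 12 and 4 counts in siFOXA1+siZBED2-2 replicates 1 and 2. The double knock-down was lower in each replicate, but the groups overlapped. The log2 fold change was -0.999 ± 0.898 (SE, n = 2 and 2) with an edgeR adjusted p of 0.692, and without siFOXA1 replicate 1 it was 0.20. A fall in ZBED2 mRNA was thus not detectable at this depth.

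FOXA1 (ENSG00000129514, chr14:37589552-37595249) had 34 and 44 counts in siFOXA1 and 71 and 47 counts in siFOXA1+siZBED2-2. Both double knock-down libraries lay above both siFOXA1 libraries. The log2 fold change of 0.64 ± 0.39 had an edgeR adjusted p of 0.513, so a difference in residual FOXA1 mRNA was neither shown nor excluded. Over the alternative settings it ran from 0.28 to 0.94. The part of the FOXA1 level in the results below was not tested.

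STAT2 and CD274 were named by the study as interferon read-outs. STAT2 (ENSG00000170581, chr12:56341597-56360107), a subunit of the interferon-activated complex, had 54.1 and 45.1 CPM in siFOXA1 and 39 and 28.9 CPM in siFOXA1+siZBED2-2. Both values were lower than either siFOXA1 value, with a log2 fold change of -0.55 ± 0.29 and an edgeR adjusted p of 0.420. CD274 (ENSG00000120217, chr9:5450542-5470554), which encodes PD-L1, had 12.1 and 12.5 CPM in siFOXA1 and 12.7 and 3.37 CPM in siFOXA1+siZBED2-2. Its low value came from replicate 2 alone: the log2 fold change of -0.61 ± 0.63 (edgeR adjusted p = 0.745) became 0.05 without siFOXA1+siZBED2-2 replicate 2. IRF9, the DNA-binding partner of STAT2, shown after its values were seen, had 25.3 and 20.0 CPM in siFOXA1 and 15.6 and 3.16 CPM in siFOXA1+siZBED2-2. Both values were lower than either siFOXA1 value, and the log2 fold change of -1.28 ± 0.65 did not pass the test (edgeR adjusted p = 0.399).

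**Figure D1:**
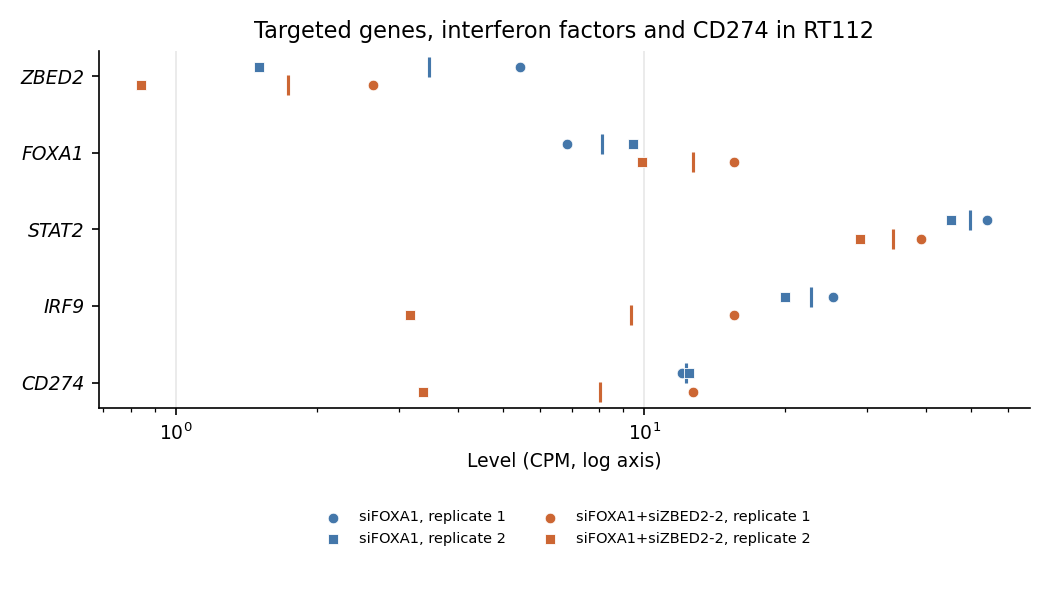
Levels of 5 genes in the 4 RT112 libraries, in CPM on a log axis; circles are replicate 1, squares replicate 2, and vertical ticks the means of 2 libraries, with siFOXA1 in blue and siFOXA1+siZBED2-2 in orange. The groups overlapped for ZBED2 and CD274, and none of the 5 genes passed the test.

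Across the transcriptome, 166 of 13264 genes tested (1.25%) differed between siFOXA1+siZBED2-2 and siFOXA1 at an edgeR adjusted p under 0.05. Of these, 119 (0.897%) were higher and 47 (0.354%) lower in the double knock-down, with at least a 2-fold change in 56 and 19 of these. In all 166, both double knock-down libraries lay on the same side of both siFOXA1 libraries, against 42.6% of all genes tested. The calls were drawn from these same libraries, so this separation was nearly fixed in advance and is no further support. The median log2 fold change of all genes tested was 0.01, and 50.7% of them were above 0. These shares, 0.897% called higher, 0.354% called lower and 50.7% above 0, are the background for the counts of every list below. Scaling by library totals alone shifted the split to 127 higher and 21 lower. With the replicate number as a block, 336 genes were called, 231 higher and 105 lower, including all 166. The count rested on siFOXA1 replicate 2 in particular: it was 25 without that library, 439 without siFOXA1 replicate 1, and 106 and 77 without siFOXA1+siZBED2-2 replicate 1 or 2. On log2(TPM + 1) values, limma called 3 genes.

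**Figure D2:**
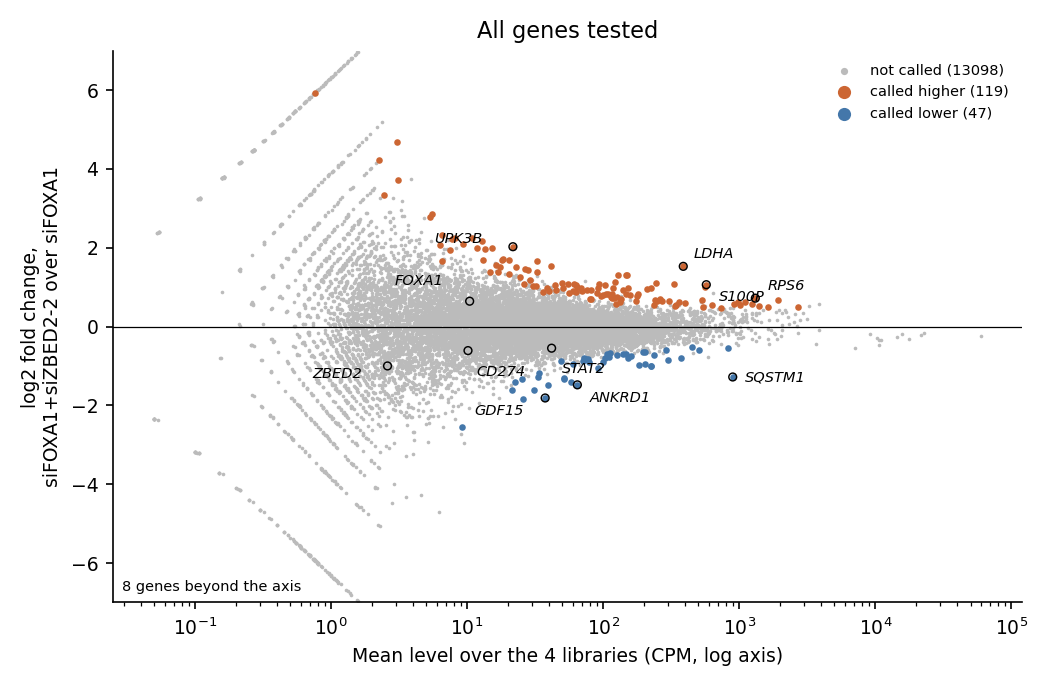
Log2 fold change of siFOXA1+siZBED2-2 over siFOXA1 against mean level over the 4 libraries, in CPM on a log axis, for the 13264 genes tested; 119 genes called higher are orange and 47 called lower are blue. SQSTM1, LDHA and S100P stand apart from the well-expressed genes around them, while ZBED2, FOXA1, STAT2 and CD274 (open circles) lie among genes that were not called. 8 genes lie beyond the vertical axis.

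Luminal and urothelial differentiation markers were the most often called of the marker lists for cell identity. Of 22 tested, 6 rose, none fell, and 18 had a log2 fold change above 0 and 4 below. Among all genes tested 0.897% were called higher and 50.7% were above 0. The list median was 0.30 against 0.01 for all genes. SNX31 was among those below 0, with 3 and 12 counts in siFOXA1 and 0 and 0 in siFOXA1+siZBED2-2. With DESeq2, 8 members were called higher and 1 lower. S100P, a calcium-binding protein of luminal urothelium, had 402 and 339 CPM in siFOXA1 and 736 and 812 CPM in siFOXA1+siZBED2-2. It had the smallest p of all genes, at 2.09-fold (log2 1.06 ± 0.13, edgeR adjusted p = 6.91e-05). UPK2, a uroplakin of the umbrella cell plaque, had 79.3 and 74.2 CPM against 171 and 165 CPM. The replicates of each group were close and far from the other group, at 2.19-fold (log2 1.13 ± 0.16, edgeR adjusted p = 0.000304).

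FABP4, a fatty acid carrier and PPARG target, had 195 and 117 CPM against 347 and 321 CPM, or 2.13-fold (log2 1.09 ± 0.17, edgeR adjusted p = 0.00127). FGFR3, the receptor tyrosine kinase of luminal papillary tumours, had 40.2 and 37.4 CPM against 76.3 and 88.5 CPM, or 2.12-fold (log2 1.09 ± 0.19, edgeR adjusted p = 0.00354). RT112 also carries a fusion of FGFR3 to TACC3, and 3′ reads of the fused transcript fall on TACC3, so the FGFR3 counts stand for transcripts with an FGFR3 3′ end. TACC3, added after its values were seen, had 335 and 226 against 437 and 370 CPM (log2 0.53 ± 0.15, edgeR adjusted p = 0.0782, and 0.0190 with the replicate block). These counts do not separate the fused transcript from that of TACC3 itself. UPK3B, another uroplakin with near-identical relatives among which reads may be split, had 11.9 and 5.16 against 28.9 and 40.9 CPM. GPX2, a glutathione peroxidase of epithelia, had 76.6 and 47.7 against 119 and 125 CPM. S100P, UPK2 and FABP4 stayed called whichever of the 4 libraries was left out, whereas FGFR3 (adjusted p = 0.0591), UPK3B (0.170) and GPX2 (0.257) were not called without siFOXA1 replicate 2. UPK3B was also not called without siFOXA1+siZBED2-2 replicate 2 (0.0507).

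The transcription factors behind the luminal programme did not pass the test: 0 of 17 were called, with a median log2 fold change of 0.31. KLF5, an epithelial Kruppel-like factor, had 145 and 136 CPM in siFOXA1 and 193 and 201 CPM in siFOXA1+siZBED2-2 (log2 0.49 ± 0.13, edgeR adjusted p = 0.0676, and 0.0301 with the replicate block). PPARG, the nuclear receptor that drives urothelial differentiation, had 49.9 and 42.1 against 65.8 and 80.5 CPM (log2 0.67 ± 0.20, edgeR adjusted p = 0.0969). For both factors the groups did not overlap. Basal and squamous markers showed no common direction, with 13 of 25 above 0, none called and a median of 0.04, and their median changed sign under 4 of the alternative settings. S100A8, an alarmin subunit of squamous epithelium, had 46.1 and 44.9 against 117 and 86.4 CPM (edgeR adjusted p = 0.0917, and 0.00624 with the replicate block). CD44, a basal adhesion receptor, had 201 and 200 against 144 and 152 CPM (edgeR adjusted p = 0.204). Fewer cells of a type and less RNA per cell cannot be told apart in such bulk libraries, here or for any list below.

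**Figure D3:**
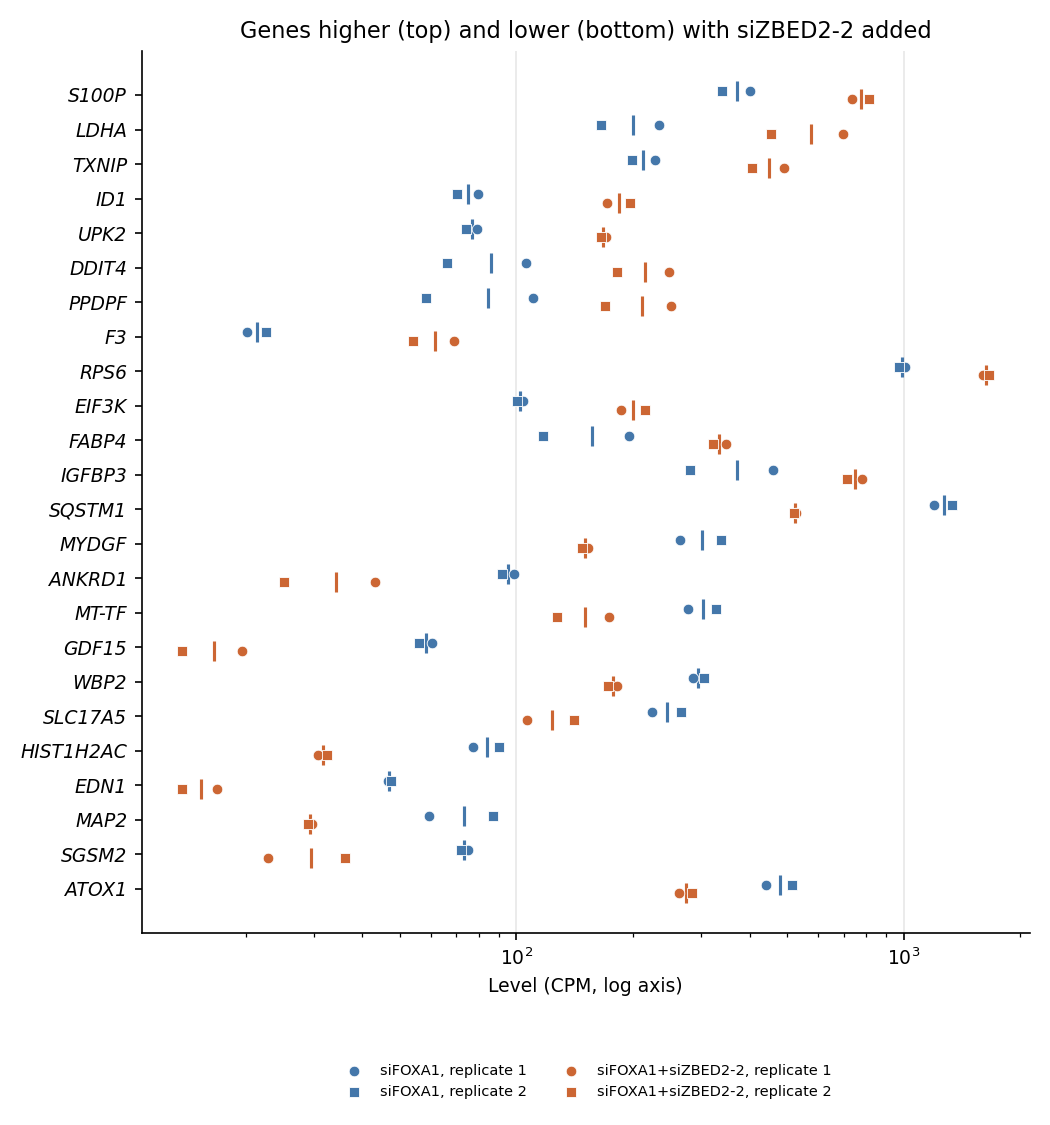
Levels in the 4 libraries of the 12 genes higher and the 12 lower with the smallest p, in CPM on a log axis; circles are replicate 1, squares replicate 2, and vertical ticks the means of 2 libraries, with siFOXA1 in blue and siFOXA1+siZBED2-2 in orange. No gene shows overlap between groups, which the choice of genes required.

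Among glycolysis and hypoxia-response genes, LDHA and GPI rose and none fell. LDHA (chr11:18394563-18408425), which reduces pyruvate to lactate, had 234 and 165 CPM in siFOXA1 and 696 and 455 CPM in siFOXA1+siZBED2-2. The lowest double knock-down value was above the highest siFOXA1 value, at 2.89-fold (log2 1.53 ± 0.20, edgeR adjusted p = 0.000168). GPI, the isomerase of glucose-6-phosphate, had 164 and 124 against 310 and 248 CPM (log2 0.95 ± 0.15, edgeR adjusted p = 0.00160), and 0.0743 without siFOXA1 replicate 2. These were the 2 called of 22 list members tested, of which 18 were above 0, with a median of 0.40. The within-replicate medians were 0.34 and 0.37. DDIT4, a stress-induced inhibitor of mTORC1, rose from 106 and 66.2 CPM to 247 and 181 CPM (log2 1.31 ± 0.19, edgeR adjusted p = 0.000406). CA9, the carbonic anhydrase used as a hypoxia marker and shown after its values were seen, had only 0 and 3 against 11 and 24 counts (edgeR adjusted p = 0.400).

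Promoters are shown for the 2 called members of the list, LDHA and GPI, and for DDIT4, which belongs to the ATF4 list and was added after its values were seen. The hypoxia response core ACGTG, searched on both strands with overlapping matches merged, is in capitals in the stretches below, which end before the RefSeq start (GRCh38.p14). They lie at chr11:18394338-18394534 for LDHA, chr19:34364790-34364874 for GPI and chr10:72273759-72273843 for DDIT4, all on the plus strand. The GPI stretch lies inside the RefSeq gene span (chr19:34359718-34402413), so the start it precedes is within the gene.
LDHA: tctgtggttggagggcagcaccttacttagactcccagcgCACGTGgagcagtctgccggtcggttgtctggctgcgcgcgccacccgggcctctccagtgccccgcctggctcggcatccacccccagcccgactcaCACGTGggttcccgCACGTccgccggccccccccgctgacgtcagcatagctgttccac
GPI: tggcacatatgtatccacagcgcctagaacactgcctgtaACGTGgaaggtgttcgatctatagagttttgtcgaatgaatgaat
DDIT4: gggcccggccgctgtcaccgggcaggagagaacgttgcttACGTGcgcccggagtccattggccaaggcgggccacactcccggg
ACGTG occurred in the 250 bases before the start in 18.5% of 35116 RefSeq promoters. By gene, it was found in 12 of the 19 list members with a RefSeq promoter (63.2%), against 21.7% of all genes. This share covers list members whether called or not, so it describes the list as chosen and not the genes that rose. A match is a description of the letters and not a bound site.

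Mitotic genes all had positive log2 fold changes, although few passed the test. All 36 tested were above 0 (median 0.62), 2 rose and 21 had both double knock-down libraries above both siFOXA1 libraries, against 21.8% of all genes tested. CDK1, the kinase that starts mitosis, had 49.3 and 31.8 CPM in siFOXA1 and 87.7 and 82.4 CPM in siFOXA1+siZBED2-2 (log2 1.07 ± 0.21, edgeR adjusted p = 0.00901). Its cyclin, CCNB1, had 50.3 and 33.1 against 84.2 and 70.8 CPM (log2 0.89 ± 0.19, edgeR adjusted p = 0.0172). siFOXA1 replicate 2 was the lowest library for both.

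That library was low for the whole list. The summed level of the 36 mitotic genes was 2298 and 1166 CPM in siFOXA1 and 2907 and 2381 CPM in siFOXA1+siZBED2-2. The median difference between the groups was 0.30 within replicate 1 and 1.08 within replicate 2. Without siFOXA1 replicate 2, 30 of the 36 remained above 0, the median was 0.22 and none was called (adjusted p = 0.207 for CDK1 and 0.371 for CCNB1). Without siFOXA1 replicate 1, 20 were called and the median was 1.25. CCNB1 was also not called without siFOXA1+siZBED2-2 replicate 1 (adjusted p = 0.125). With the replicate number as a block, 11 of the 36 were called, among them DLGAP5 (edgeR adjusted p = 0.0208), HMMR (0.0228), KIF20A (0.0263) and TPX2 (0.00534), all proteins of the mitotic spindle.

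Of 36 DNA replication genes tested, none was called, 29 were above 0 and the median was 0.17, but within replicate 1 it was -0.05 and within replicate 2 it was 0.51. Without siFOXA1 replicate 2 the list median was -0.11. Their summed level was 1964 and 1250 CPM in siFOXA1 and 1966 and 1721 CPM in siFOXA1+siZBED2-2, with siFOXA1 replicate 2 again the lowest. RRM1, a subunit of ribonucleotide reductase, had 133 and 89.9 against 168 and 157 CPM (edgeR adjusted p = 0.183). ORC6, of the origin recognition complex, had 14.5 and 13.5 against 29.8 and 20.2 CPM (edgeR adjusted p = 0.203). Of 23 G1 cyclins, kinases, inhibitors and RB-E2F genes, none was called. CCNE1, the cyclin of S-phase entry, had 4 and 7 against 15 and 36 counts (log2 2.22 ± 0.63, edgeR adjusted p = 0.0835, and 0.0394 with the replicate block). CCND3, a D-type cyclin, had 60.1 and 48.4 against 78.3 and 79.5 CPM (edgeR adjusted p = 0.184).

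The promoters of the mitotic genes that rose are shown with the CCAAT box, on either strand (CCAAT or ATTGG), and for CDK1 also the cell cycle homology region TTTGAA, in capitals. The stretches are chr10:60778360-60778477 for CDK1, before the second of its 2 listed starts, and chr5:69167023-69167139 for CCNB1, both on the plus strand of GRCh38.p14.
CDK1: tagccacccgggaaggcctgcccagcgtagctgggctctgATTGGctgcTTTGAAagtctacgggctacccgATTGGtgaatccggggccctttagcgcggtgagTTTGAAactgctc
CCNB1: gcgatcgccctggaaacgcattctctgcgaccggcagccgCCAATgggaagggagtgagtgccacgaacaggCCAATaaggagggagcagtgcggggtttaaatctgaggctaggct
In both, a pair of CCAAT boxes stands close to the start. The CCAAT box was found before 24 of the 30 mitotic genes with a RefSeq promoter (80.0%), against 37% of all genes, and TTTGAA on either strand before 17 of them (56.7%), against 16.1% of all genes. Over all 35116 promoters the shares were 32% and 13.3%. The shares of the list cover its members whether called or not, and describe the list as chosen and not the genes that rose.

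Of 80 cytosolic ribosomal protein genes tested, 11 rose and none fell, against 0.897% of all genes tested called higher. Of the 80, 76 were above 0. The median was 0.33 (members from -0.52 to 1.31), with 0.26 within replicate 1 and 0.38 within replicate 2. Called genes of any list had a median level of 90.3 CPM, against 19.5 CPM for all genes tested. The ribosomal protein genes named here lay above both, and the part of their level in these calls was not tested. Their summed level was 64339.5 and 60980 CPM in siFOXA1 and 76390 and 80531 CPM in siFOXA1+siZBED2-2, without overlap. RPS6, of the small subunit, had 1007 and 974 CPM against 1605 and 1663 CPM, or 1.65-fold (log2 0.72 ± 0.11, edgeR adjusted p = 0.00122). RPLP0, of the ribosomal stalk, had 875 and 844 against 1322 and 1330 CPM (log2 0.63 ± 0.11, edgeR adjusted p = 0.00648). RPL10A, RPS12, RPL31 and RPS2 rose by between 1.46-fold and 1.6-fold.

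The number of ribosomal protein calls depended on single libraries and on the model. It was 21 with the replicate block and 34 with DESeq2, 1 without siFOXA1 replicate 2 and 16 without siFOXA1 replicate 1, and 5 and 4 without siFOXA1+siZBED2-2 replicate 1 or 2. Without the mitochondrial transcripts it was 16. Many of these genes have processed pseudogenes, so their reads may be split between copies. EIF3K, a subunit of the translation initiation factor eIF3, rose from 104 and 100 CPM to 186 and 214 CPM (log2 0.97 ± 0.15, edgeR adjusted p = 0.00122).

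**Figure D4:**
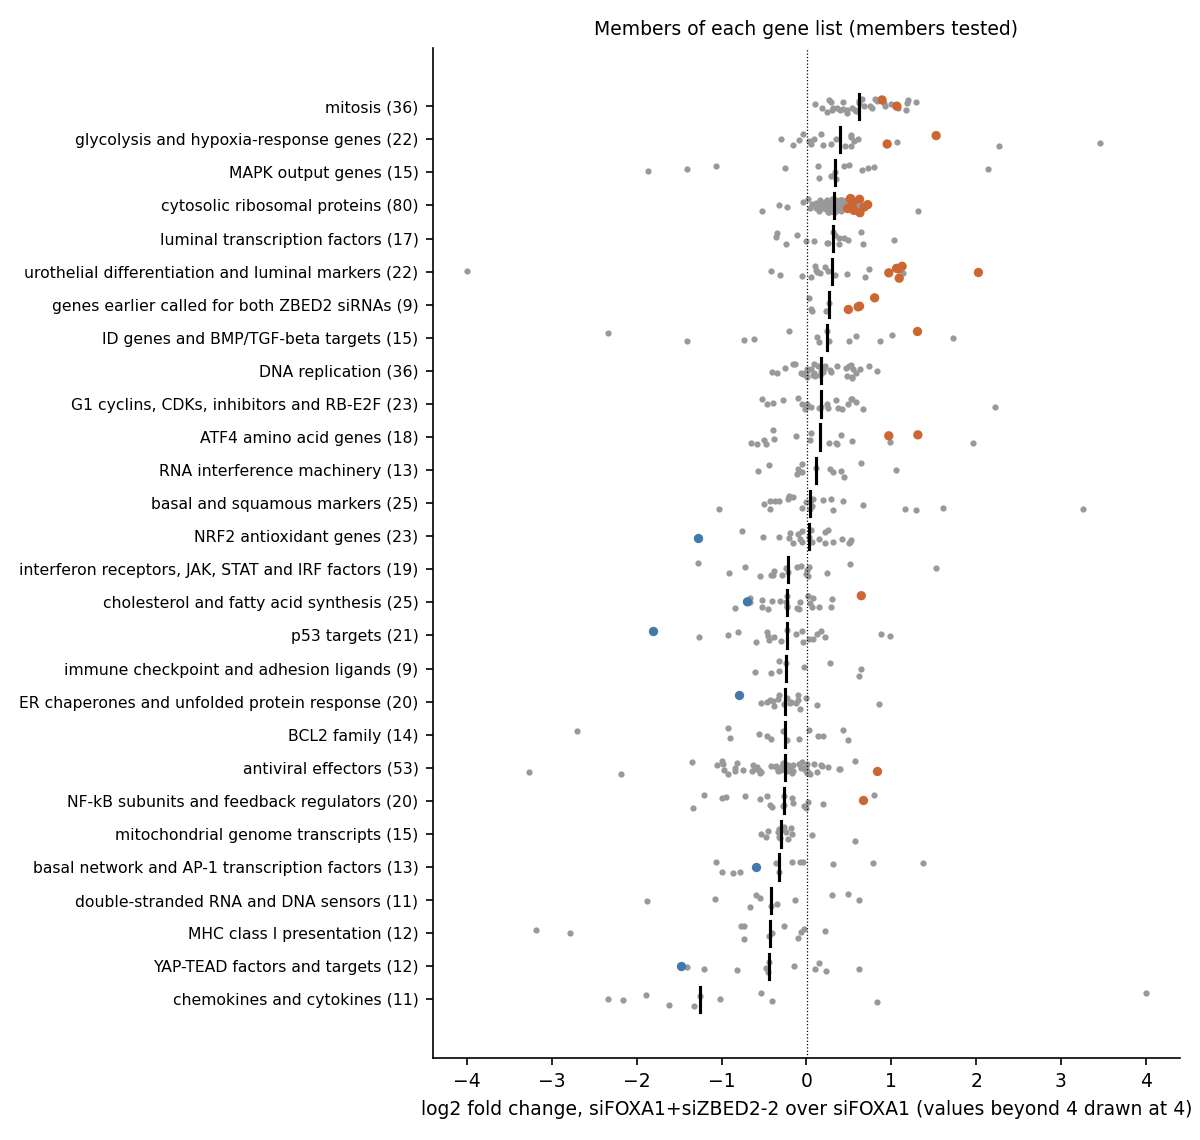
Log2 fold changes of siFOXA1+siZBED2-2 over siFOXA1 for the members of 28 gene lists, with the number of members tested in brackets; each point is a gene, orange and blue points passed the test, black bars are list medians, and the dotted line is the median of all genes. Mitotic genes had the highest median (0.62) and chemokines and cytokines the lowest (-1.26). The chemokine and cytokine list holds few counts, and its median is the value of CXCL10 (SE 1.76). Values beyond 4 in either direction are drawn at 4.

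Interferon pathway genes lay mostly below 0 and did not pass the test. Of 19 receptors, JAK kinases, STATs and IRFs, none was called, 13 were below 0 and the median was -0.22. IFNAR2, a chain of the type I interferon receptor, had 108 and 85.6 CPM in siFOXA1 and 46.1 and 71.5 CPM in siFOXA1+siZBED2-2 (edgeR adjusted p = 0.127). JAK1, the kinase bound to that receptor, had 51.7 and 62.3 against 81.6 and 81.0 CPM (edgeR adjusted p = 0.175). Of 53 antiviral effectors, 40 were below 0, with a median of -0.25. Both double knock-down libraries lay below both siFOXA1 libraries for 8 of the 53 and above them for 2. Over the 13264 genes tested this held for 2759 and 2893. The list held 1 call, in the other direction. This was SAMD9, a restriction factor, with 99.8 and 66.2 against 174 and 122 CPM (log2 0.83 ± 0.19, edgeR adjusted p = 0.0282). SAMD9 was not called without siFOXA1 replicate 2 (adjusted p = 0.407) or siFOXA1+siZBED2-2 replicate 1 (0.300).

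The summed level of the antiviral genes differed more between replicates than between treatments. It was 4263 CPM in siFOXA1 replicate 1 and 3740 CPM in siFOXA1+siZBED2-2 replicate 1, but 2929 and 2228 CPM in replicate 2. The sum was lower in the double knock-down within each replicate, and siFOXA1+siZBED2-2 replicate 1 lay above siFOXA1 replicate 2. ISG15, a ubiquitin-like interferon product, had 387 and 171 CPM against 286 and 98.9 CPM, and IFIT1, which binds viral RNA, had 94.1 and 46.6 against 78.5 and 12.2 CPM. MX1, a GTPase against influenza virus, had 59 and 50 against 11 and 12 counts (log2 -2.18 ± 0.83, edgeR adjusted p = 0.233). These 3 genes were chosen after their values were seen. The direction of the list turned on the library: without siFOXA1+siZBED2-2 replicate 1 the median was -0.84 and 11 genes were called lower, whereas without siFOXA1+siZBED2-2 replicate 2 it was 0.11, and without siFOXA1 replicate 1 it was 0.08.

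Sensors, antigen presentation and inflammatory lists held 1 call among them. Of 11 double-stranded RNA and DNA sensors none was called (median -0.42). The median was -0.07 within replicate 1 and -0.66 within replicate 2, and -0.02 without siFOXA1+siZBED2-2 replicate 2. Their summed level was 278 and 291 CPM in siFOXA1 and 318 and 282 CPM in siFOXA1+siZBED2-2. MAVS, the mitochondrial adaptor of RNA sensing, had 120 and 138 against 176 and 185 CPM (edgeR adjusted p = 0.144), and TBK1, the kinase downstream of it, had 31.4 and 28.4 against 20.2 and 17.5 CPM (0.416). Of 12 genes of MHC class I presentation, 11 were below 0 and none was called (median -0.42). That median too was closer to 0 within replicate 1 (-0.10) than within replicate 2 (-0.58). ERAP2, a peptide-trimming protease, had 56.7 and 51.6 against 40.4 and 24.9 CPM (edgeR adjusted p = 0.244), and CALR, a chaperone of the loading complex, had 1077 and 1265 against 1003 and 943 CPM (0.320).

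Only 11 of 28 chemokines and cytokines could be tested, 9 of them were below 0 and none was called (median -1.26). The list lay near the floor, with 16 members at 0 in all 4 libraries. It summed to 90.9 and 83.8 CPM in siFOXA1 and 51.3 and 55.0 CPM in siFOXA1+siZBED2-2. Its median was the value of CXCL10 (log2 -1.26 ± 1.76), which had 21 and 7 against 6 and 5 counts. CSF1, the macrophage growth factor, had 67 and 64 counts against 6 and 19 (log2 -2.34 ± 0.99, edgeR adjusted p = 0.298). CCL28, a mucosal chemokine, was at 0 in both siFOXA1 libraries and had 11 and 1 counts in siFOXA1+siZBED2-2. Of 9 checkpoint and adhesion ligands, none was called. CD276 had 11.3 and 15.5 against 14.5 and 27.2 CPM, and PVR had 59.5 and 104 against 63.4 and 58.6 CPM. In the NF-kB list, 16 of 20 were below 0 (median -0.27), and the gene called was higher: TNFAIP2, an NF-kB-induced cytoskeletal protein, with 178 and 192 against 286 and 301 CPM (log2 0.67 ± 0.14, edgeR adjusted p = 0.0157). Without siFOXA1 replicate 1, siFOXA1 replicate 2 or siFOXA1+siZBED2-2 replicate 2, its adjusted p was 0.0587, 0.110 and 0.116.

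**Figure D5:**
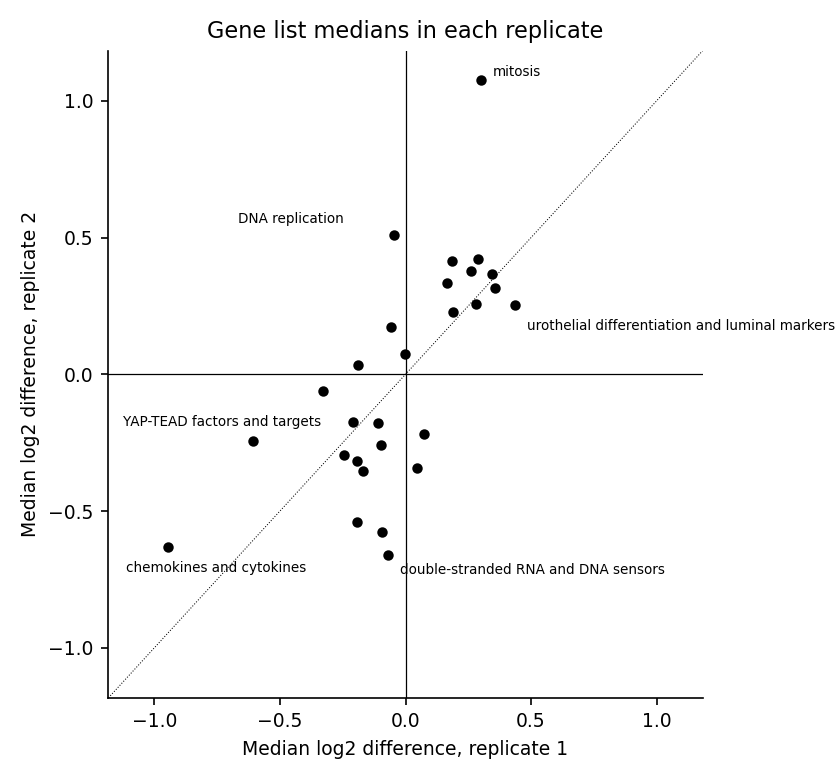
Median log2 difference of siFOXA1+siZBED2-2 minus siFOXA1 within replicate 1 (horizontal) and within replicate 2 (vertical) for the 28 gene lists; each point is a list and the dotted line marks equal values. Mitotic genes (0.30 and 1.08) and DNA replication genes (-0.05 and 0.51) lay far above the line. Chemokines and cytokines, a list with few counts, were low in both (-0.95 and -0.63).

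Among genes that fell, SQSTM1 had the smallest p. It encodes p62, the autophagy receptor that also frees NRF2 from KEAP1, and it had 1200 and 1336 CPM in siFOXA1 and 526 and 519 CPM in siFOXA1+siZBED2-2. The replicates of each group were close, at 2.43-fold lower (log2 -1.28 ± 0.15, edgeR adjusted p = 6.91e-05), and it stayed called whichever of the 4 libraries was left out. The other 22 tested genes of the NRF2 list were not called, and the list median was 0.03.

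ANKRD1, a stretch-responsive target of YAP and TEAD, had 98.4 and 91.8 CPM against 43.2 and 25.1 CPM, or 2.79-fold lower (log2 -1.48 ± 0.24, edgeR adjusted p = 0.00163). It was the 1 called of 12 YAP-TEAD genes, whose median was -0.45, with -0.61 and -0.24 within the replicates. Its promoter is shown, on the minus strand at chr10:90921170-90921337 of GRCh38.p14, with the TEAD site GGAATG, searched on both strands, in capitals.
ANKRD1: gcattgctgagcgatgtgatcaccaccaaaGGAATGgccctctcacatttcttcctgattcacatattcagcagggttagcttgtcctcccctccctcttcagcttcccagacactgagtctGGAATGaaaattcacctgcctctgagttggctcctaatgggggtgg
GGAATG occurred before 5 of the 9 list members with a RefSeq promoter, against 14.3% of all genes and 11.9% of all promoters. This share too covers members whether called or not, and describes the list as chosen.

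GDF15, EDN1 and MYDGF were also among the 12 genes that fell with the smallest p. GDF15, a stress cytokine and p53 target, had 60.6 and 56.1 CPM against 19.5 and 13.7 CPM, or 3.51-fold lower (log2 -1.81 ± 0.35, edgeR adjusted p = 0.00902), and 0.0755 without siFOXA1+siZBED2-2 replicate 2. The other 20 p53 targets tested were not called (median -0.23). EDN1, the vasoconstrictor endothelin-1, had 46.5 and 47.5 against 16.9 and 13.7 CPM, or 3.07-fold lower (log2 -1.62 ± 0.34, edgeR adjusted p = 0.0146). MYDGF, a secreted growth factor of the endoplasmic reticulum, had 265 and 336 against 153 and 148 CPM (log2 -1.0 ± 0.16, edgeR adjusted p = 0.00160). EDN1 was not called without siFOXA1 replicate 2 (adjusted p = 0.0888) or siFOXA1+siZBED2-2 replicate 2 (0.116), nor MYDGF without siFOXA1 replicate 2 (0.0591).

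Endoplasmic reticulum chaperones lay below 0 in 18 of 20 cases (median -0.25), and HYOU1 fell, from 134 and 126 CPM to 68.6 and 80.7 CPM (log2 -0.80 ± 0.19, edgeR adjusted p = 0.0282). HYOU1, a hypoxia-induced chaperone, was not called once any of the 4 libraries was left out (adjusted p from 0.0554 to 0.202). In the ATF4 list, 2 of 18 rose: DDIT4, given above, and AARS, the alanyl-tRNA synthetase, from 39.6 and 29.2 CPM to 66.9 and 68.3 CPM (edgeR adjusted p = 0.0128), and 0.263 and 0.0619 without siFOXA1 replicate 2 or siFOXA1+siZBED2-2 replicate 2. Of 25 cholesterol and fatty acid synthesis genes tested, 1 rose and 1 fell, 16 were below 0 and the median was -0.23. FASN, the fatty acid synthase, rose from 254 and 219 CPM to 335 and 407 CPM (log2 0.65 ± 0.15), whereas HMGCS1, of the mevalonate pathway, fell from 170 and 195 CPM to 104 and 121 CPM (log2 -0.69 ± 0.17), with edgeR adjusted p of 0.0264 and 0.0403. Without siFOXA1 replicate 2 neither was called (0.310 and 0.347), FASN also not without siFOXA1+siZBED2-2 replicate 2 (0.262), and HMGCS1 also not without siFOXA1+siZBED2-2 replicate 1 (0.253) or 2 (0.0870).

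The remaining genes of smallest p that rose were of mixed function. TXNIP, a thioredoxin inhibitor that responds to glucose, rose from 227 and 198 CPM to 491 and 406 CPM (log2 1.07 ± 0.14, edgeR adjusted p = 0.000237). ID1, an inhibitor of bHLH factors and a BMP target, rose from 79.5 and 70.1 CPM to 172 and 196 CPM (log2 1.30 ± 0.18, edgeR adjusted p = 0.000237), the 1 called of 15 in its list. F3, tissue factor, rose from 20.1 and 22.6 CPM to 69.1 and 54.2 CPM, or 2.89-fold. PPDPF rose from 110 and 58.5 CPM to 251 and 170 CPM, and IGFBP3, which binds insulin-like growth factors, from 460 and 281 CPM to 782 and 715 CPM. These genes stayed called whichever of the 4 libraries was left out, except IGFBP3 without siFOXA1 replicate 2 (adjusted p = 0.0591).

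JUN, the AP-1 subunit, was named through its list and had 340 and 357 against 222 and 241 CPM (log2 -0.59 ± 0.14, edgeR adjusted p = 0.0282). That list mixes AP-1 subunits with basal network factors, and 10 of its members were below 0 and 3 above. Among the basal network factors, HMGA2 (log2 1.38 ± 0.41, edgeR adjusted p = 0.104) and NR3C1 (0.31 ± 0.17, 0.452) were above 0. KLF7 (log2 -0.08 ± 0.32) and ZBED2, given above, were below 0. HMGA2, NR3C1 and KLF7 were added after their values were seen. JUN was the 1 called of 13 genes of the basal network and AP-1, and it was not called without siFOXA1 replicate 2 (adjusted p = 0.240) or either double knock-down library (0.199 and 0.102). Of the remaining genes that fell with the smallest p, MT-TF, the mitochondrial phenylalanine tRNA, had 278 and 327 against 173 and 128 CPM, and WBP2, a cofactor of YAP, had 285 and 305 against 182 and 172 CPM. SLC17A5, a lysosomal sialic acid exporter, had 224 and 266 against 107 and 141 CPM, and ATOX1, a copper chaperone, had 440 and 516 against 263 and 284 CPM. HIST1H2AC, a histone gene with near-identical copies, had 77.5 and 90.3 against 30.7 and 32.5 CPM, MAP2, a microtubule-binding protein, had 59.5 and 87.1 against 29.6 and 28.9 CPM, and SGSM2 had 74.8 and 71.8 against 22.8 and 36 CPM. Each of these 7 lost its call without siFOXA1 replicate 2, with adjusted p between 0.0903 and 0.218. Each also lost it without a double knock-down library, MT-TF (adjusted p = 0.0939), WBP2 (0.0946) and MAP2 (0.0706) without replicate 2, SLC17A5 (0.104), ATOX1 (0.0818) and SGSM2 (0.192) without replicate 1, and HIST1H2AC without replicate 1 (0.0931) or 2 (0.0768).

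The 9 genes earlier called for both ZBED2 siRNAs in an analysis of the same series were all above 0 here (median 0.27), and 4 rose: RPLP0, given above, MPRIP, a myosin phosphatase scaffold (332 and 305 against 480 and 492 CPM, log2 0.61 ± 0.13), SKAP2, a Src-family adaptor (120 and 111 against 173 and 229 CPM, log2 0.80 ± 0.18), and TPM3, a tropomyosin (445 and 461 against 608 and 668 CPM, log2 0.49 ± 0.12). The edgeR adjusted p were 0.0133, 0.0264 and 0.0466 for the last 3. That list was drawn from libraries that include these 4 and is no independent evidence of direction. None of the 9 was called without siFOXA1 replicate 2, and 3, 2 and 1 were called without siFOXA1 replicate 1 and siFOXA1+siZBED2-2 replicate 1 or 2. TPM3 was called in no fit that left out a library.

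The other lists held no call. The 13 genes of the RNA interference machinery had a median of 0.12, with 116 and 91.6 against 132 and 143 CPM for DICER1 (edgeR adjusted p = 0.259). The 15 MAPK output genes had a median of 0.34, with 55.9 and 49.2 against 68.4 and 80.1 CPM for DUSP6, a phosphatase induced by ERK (edgeR adjusted p = 0.206). The 14 BCL2 family genes had a median of -0.25, and BCL2 itself had 21 and 8 counts against 4 and 0. Of 15 mitochondrial genes for proteins and rRNAs, 13 were below 0 and none was called (median -0.30), with 8106 and 8593 against 5883 and 5666 CPM for MT-ND1, a complex I subunit (edgeR adjusted p = 0.304).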

How the data were processed

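The series measured RNA by 3′ RNA-seq (QuantSeq FWD, single reads) in 24 libraries. Per the labels, reads were aligned with STAR 2.6.1a to hg38, and the deposited pipeline settings name GENCODE 29, TrimGalore 0.6.2 (minimum quality 20, minimum length 10) and rnaseq 3.1.8, while the methods of the study name hg19 for RNA-seq. The authors deposited raw counts of whole reads per gene, without molecular identifiers stated, and TPM values, which divide by gene length and were used only as an alternative. The authors' counts of 58721 genes entered here as deposited.

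The 12 RT112 libraries of 6 groups were fitted in edgeR 4.0.16 (R 4.3.3): TMM factors, filterByExpr (minimum count 10, total 15), group means without a block and the quasi-likelihood F test of siFOXA1+siZBED2-2 against siFOXA1, with Benjamini-Hochberg adjustment over 13264 genes and a threshold of 0.05. The typical coefficient of variation between replicates was 25.8%. Errors are standard errors implied by the F statistic. CPM are counts per 1000000 of TMM-scaled library size, and within-replicate differences used log2(CPM + 0.5). An exact permutation test of 2 against 2 libraries cannot go below p = 0.333, so none was run. Nothing says whether replicates came from separate cultures, so p-values measure only the spread between these samples.

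Replicate numbers stand under an experiment batch tag in the labels, so equal numbers were taken to pair samples. Deviations of same-numbered samples correlated across genes at 0.05 in the compared groups and at 0.01 to 0.06 over 15 pairs of RT112 groups. The block called 336 genes in place of 166. No libraries agreed within sampling noise (chi-square per gene from 7.27 to 17.5). The value was 9.33 between the siFOXA1 replicates and 7.27 between the siFOXA1+siZBED2-2 replicates. Against siFOXA1+siZBED2-2 replicates 1 and 2 it was 10.3 and 12.6 for siFOXA1 replicate 1, and 17.3 and 17.5 for siFOXA1 replicate 2. Thus siFOXA1 replicate 1 lay about as far from its own replicate as from siFOXA1+siZBED2-2 replicate 1.

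The comparison and the gene lists were chosen with earlier results of these data known. Named genes were ZBED2, FOXA1, STAT2 and CD274, the 12 called higher and 12 called lower of smallest p with no overlap and a mean of at least 5 CPM, up to 6 called members of each list, and the 2 of smallest p from a list with no call. RefSeq (GRCh38.p14) gave coordinates for 73 of 78 named genes, and promoters. Alternatives used DESeq2 1.42.0, limma 3.58.1 on log2(TPM + 1), other scalings, no filter, the 4 libraries alone and each of them left out. The fits were checked on simulated counts with known changes, the same spread for every gene and no outlying library. That check does not cover how the calls here depend on single libraries. The authors' comparisons were not used. Some items are not reported here.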

Additional observations from a re-analysis of the deposited data

How the results depend on the processing

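The number of genes called, 166 (119 higher, 47 lower, 75 at least 2-fold), moved with the model. DESeq2 called 338 (215 higher, 123 lower), edgeR without a filter on low counts 324 (222, 102, 142 at least 2-fold), edgeR with the replicate number as a block 336 (231, 105, 136), edgeR on the 4 libraries alone 65 (40, 25, 32), where fewer samples estimated the spread, and limma on log2(TPM + 1) 3 (2, 1, 3). With library totals alone 21 genes were called lower. The cause of these differences was not tested. Leaving out each of the 4 libraries gave 25 to 439 calls, 21 to 329 higher, 4 to 110 lower and 19 to 303 at least 2-fold; the lone library left in a group was then assumed to vary like the other groups. All 166 genes kept their direction in the fits that tested them. With a library left out this was nearly fixed in advance, since the groups did not overlap for any of the 166. Every fit also reused the same counts, so this is no independent support. The log2 fold change of ZBED2 ran from -2.02 to 0.20 with a library left out and that of CD274 from -1.86 to 0.052, and FOXA1 and STAT2 kept their direction throughout without passing the test. Of the 45 named genes called, 45 were called under the block, 45 by DESeq2 and 13 in every fit that left out a library. Beyond KLF5, S100A8 and CCNE1 and the counts given above, the block changed no call of a named gene. The option of dropping mitochondrial transcripts was chosen after seeing the data. At 0.604 to 0.658 CPM for 3 counts, low genes such as ZBED2 limit what these libraries can show.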
